A study of Mus musculus with 12 samples.

Results

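The 10 genes described here encode the transcription factor NRF2 and enzymes of the glutathione, thioredoxin and pentose phosphate systems. They were taken by symbol from the deposited expression table, which lists 45777 genes, and all 10 were found and passed the filter on low values. They are Nfe2l2, Gclc, Gclm, Gsr, Txnrd1, Srxn1, G6pdx, Pgd, Tkt and Taldo1. RNA was sequenced from CD4+ T cells of the spleen of wild-type C57BL/6 mice, 7 weeks old per the labels, cultured for 3 days with anti-CD3 at 0.5 µg/ml, which engages the T cell receptor complex. The 12 samples form 4 groups of 3: anti-CD3 with no drug (Control), with metformin (Metformin), with the calcineurin inhibitor FK506, also called tacrolimus (FK506), and with both drugs (Metformin+FK506). All 4 groups shared the anti-CD3 stimulus, and none was unstimulated. The study's methods also list anti-CD28 for such cultures, which the labels do not, and state an older age range for its mice. The drug doses of these samples are not given in the sources used here. Nothing in the labels says whether the 3 samples of a group came from separate mice, so the p-values measure only the spread between these samples, which may be technical.

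NRF2, the product of Nfe2l2, is held in the cytoplasm and marked for degradation by KEAP1. When oxidants or electrophiles modify KEAP1, NRF2 accumulates, enters the nucleus and, paired with a small MAF protein, binds the antioxidant response element of its target genes. Among those targets are enzymes that make glutathione, enzymes that keep glutathione and thioredoxin reduced, and enzymes that supply NADPH, the cofactor on which that reduction depends. In activated T cells the pentose phosphate pathway serves both purposes of this carbon flow: its oxidative branch makes NADPH and its non-oxidative branch interconverts sugar phosphates for nucleotide synthesis.

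Read counts assigned to genes summed to between 43402632 and 64290105 per sample, and single-gene counts of the 10 genes ran from 349 (Srxn1) to 29481 (Tkt). The coefficient of variation of FPKM (a level scaled to the size of the library and per length of transcript) within a group was between 0.408% and 15.2% for these genes, with a median of 2.91%. T cell markers were present in every group, with 12 genes summing to between 2183 and 2615 FPKM. In FK506 against Control, 4 of the 12 were called higher and 8 lower by the test described below, with a median log2 change of −0.44. Of all genes, 41.3% were called higher and 39.6% lower. Markers of other cells differed with FK506 as well. The summed FPKM of 10 B cell markers was 59.8 to 63.4 in Control, 83.3 to 98.9 in Metformin, 858 to 907 in FK506 and 405 to 433 in Metformin+FK506. The summed FPKM of 10 myeloid markers was 4.40 to 4.57 in Control, 8.73 to 10.0 in Metformin, 1319 to 1368 in FK506 and 887 to 1007 in Metformin+FK506. In Control and in Metformin, 5 of these 10 myeloid genes had at most 3 counts in every sample. The sum of 8 erythroid genes stayed at or under 3.98 FPKM in every sample, and that of 2 CD8 genes between 6.84 and 13.2, highest in Metformin. The study's methods isolated the CD4+ cells on magnetic beads, a step meant to leave other cells out. The part that these other cells had in the differences below was not tested, and in bulk RNA fewer cells of a type and less RNA per cell cannot be told apart.

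The letters of the promoters are given here because NRF2 acts through a short DNA element. RefSeq promoter windows on GRCm38.p6, from 250 bases before to 50 bases after a transcription start, were at hand for 8 of the 10 genes, as 11 windows, and not for Gclc and Gsr. They were searched on both strands for the core of the antioxidant response element, TGACNNNGC, and for the AP-1 site TGAGTCA. The element core was found in 6 of the 11 windows, in 6 genes, while 12.4% of all windows in the RefSeq table held it. The following stretches show the matches in capitals, 5′ to 3′ on the strand of the gene. A match on the opposite strand of the gene reads as the reverse complement of the core.
Nfe2l2, chr2:75704875-75704913, minus strand: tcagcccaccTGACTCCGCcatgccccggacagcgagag
Gclm, chr3:122245403-122245451, plus strand: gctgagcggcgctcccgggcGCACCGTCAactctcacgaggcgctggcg
Txnrd1, chr10:82859094-82859142, plus strand: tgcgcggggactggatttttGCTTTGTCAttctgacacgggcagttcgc
Srxn1, chr2:152105532-152105573, plus strand: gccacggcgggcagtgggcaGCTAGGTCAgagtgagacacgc
G6pdx, chrX:74428909-74428957, minus strand: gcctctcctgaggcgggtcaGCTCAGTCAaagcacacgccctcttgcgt
Pgd, chr4:149166051-149166099, minus strand: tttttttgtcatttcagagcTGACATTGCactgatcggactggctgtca
The match in Nfe2l2 began 240 bases before the start, that in Gclm 134, that in Txnrd1 92 and that in G6pdx 57. In Srxn1 it began 29 bases after the start and in Pgd 4 bases after it. Txnrd1 held the core in 1 of 3 windows and Pgd in 1 of 2. In both genes the match lay in a window inside the gene span given below, at chr10:82858956-82859255 and chr4:149166033-149166332. Their windows at the 5′ end of that span held no match. Tkt and Taldo1 held no match in their windows, which says only that these letters were not found there.

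The whole windows of Srxn1, which rose most with FK506, and of Tkt, which alone fell, are given for comparison. In that of Srxn1 the capitals mark the element core and 2 AP-1 matches, which did not overlap it, and in that of Tkt nothing matched. AP-1 matches were found in 5.20% of all windows. A match is a string of letters and not evidence of binding, and no binding was measured in these samples.
Srxn1, chr2:152105274-152105573, plus strand: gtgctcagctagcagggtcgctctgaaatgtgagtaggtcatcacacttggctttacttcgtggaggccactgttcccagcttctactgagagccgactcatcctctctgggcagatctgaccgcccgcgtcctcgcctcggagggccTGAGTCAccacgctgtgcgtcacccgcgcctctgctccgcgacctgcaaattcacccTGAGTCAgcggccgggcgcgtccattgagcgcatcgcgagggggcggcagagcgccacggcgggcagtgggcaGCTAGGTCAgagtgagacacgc
Tkt, chr14:30548881-30549180, plus strand: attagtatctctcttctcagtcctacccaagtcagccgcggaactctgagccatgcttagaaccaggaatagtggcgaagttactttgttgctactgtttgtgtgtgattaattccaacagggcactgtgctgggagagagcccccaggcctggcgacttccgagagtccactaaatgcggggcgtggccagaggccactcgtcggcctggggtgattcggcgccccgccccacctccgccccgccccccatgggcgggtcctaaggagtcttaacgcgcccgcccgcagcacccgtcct

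FK506 against Control asks what the calcineurin inhibitor changed in stimulated cells. All 10 genes differed, 9 higher and 1, Tkt, lower (edgeR quasi-likelihood test, Benjamini-Hochberg adjusted p under 0.05 over 15197 genes). Of all genes tested, 80.9% differed in this comparison, 41.3% higher and 39.6% lower, so that a difference by itself does not set these genes apart. Their sizes were uneven: the log2 change ran from −1.20 (Tkt) to 2.97 (Srxn1), with a median of 1.06 beside 0.02 over all genes. In 6 of the 10 the change was past 1 on the log2 scale in either direction, against 36.6% of all genes. Counts of changes past 1, here and below, come from this edgeR fit and were not repeated on other scales. FPKM values of FK506 and Control did not overlap for any of the 10 genes, as for 84.4% of all genes. Log2 changes are from TMM-scaled counts, while levels are in FPKM, and FPKM ratios of FK506 to Control run higher than these fold changes, since FPKM values carry no TMM factor and the factors were 1.07 to 1.08 in FK506 and 0.917 to 0.926 in Control. With limma on log2(FPKM + 1), the median of all genes was 0.19 higher in FK506 than in Control, and 7579 genes were called higher and 4776 lower in place of 6283 and 6014. With limma on log2(TPM + 1), TPM being scaled to the same total in every sample, that median was 0.42 and the counts 8997 and 3624. None of the 10 genes changed direction in this comparison on any scale tried.

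**Figure D1:**
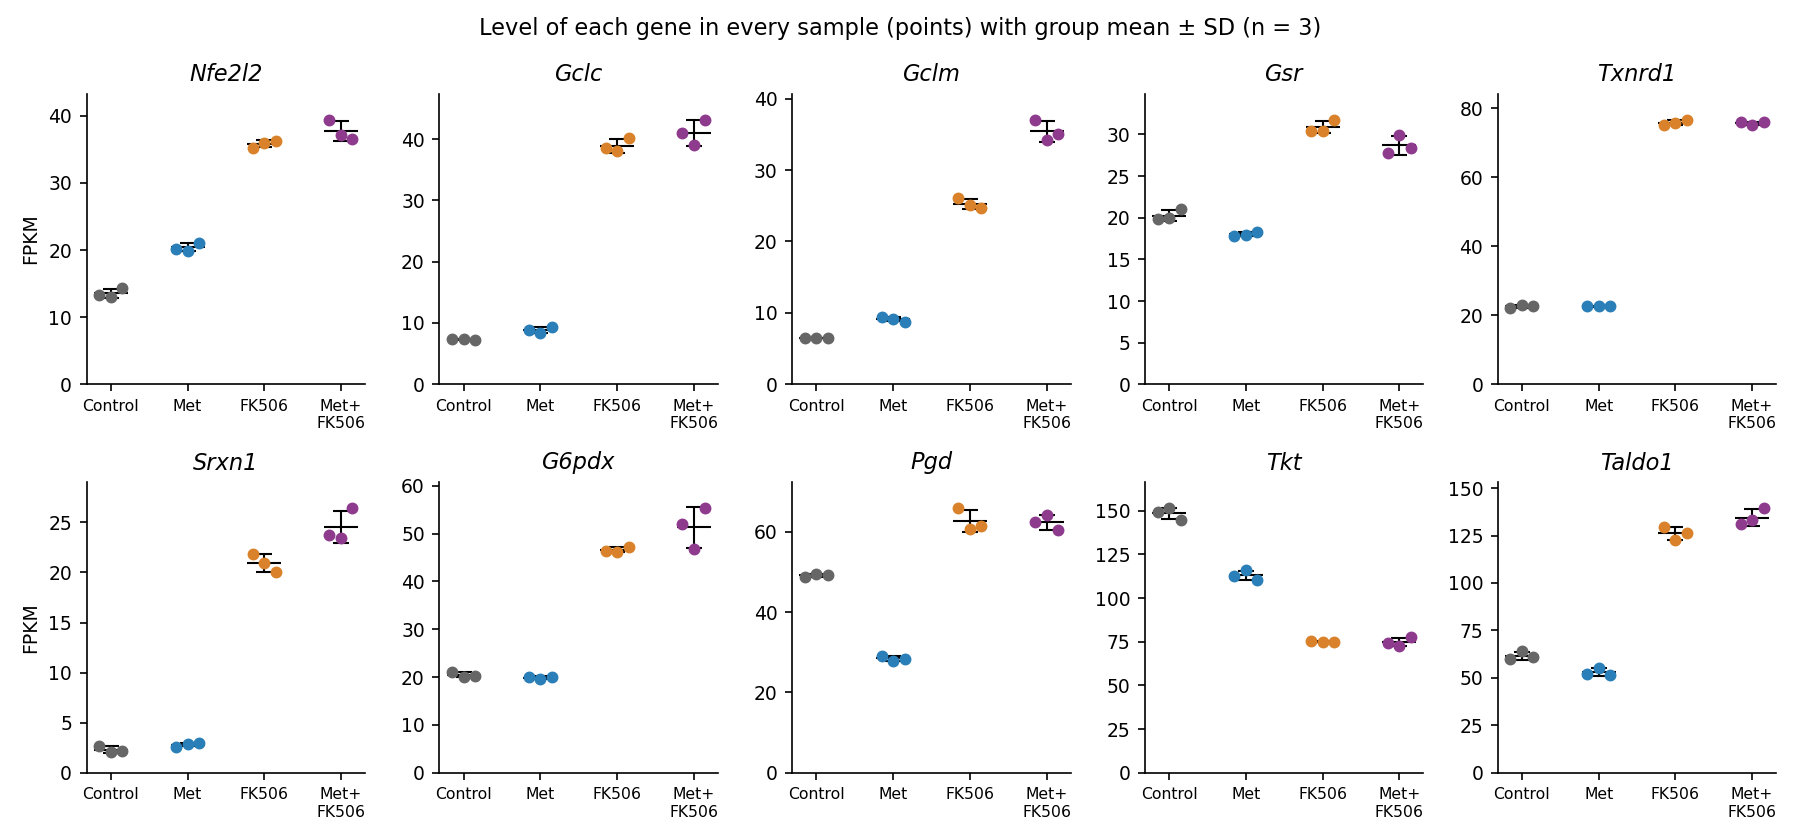
Level of each of the 10 genes in FPKM, on axes starting at 0, in the 4 groups. Points are the 3 samples of a group and bars the mean with the SD. Of the 10 panels, only that of Tkt falls with FK506, from 148 to 75.1 FPKM on average.

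Nfe2l2 (gene ID 18024, chr2:75675513-75704641, minus strand, GRCm38), which encodes NRF2, was lowest in Control and rose under each drug. Its level was 13.3, 13.05 and 14.4 FPKM in the Control samples and 20.2, 19.9 and 21.1 in Metformin. It was 35.3, 36.0 and 36.2 FPKM in FK506 and 39.4, 37.1 and 36.6 in Metformin+FK506. No group overlapped another. The transcript was 2.23-fold higher in FK506 than in Control (log2 1.15 ± 0.0465 SE, n = 3 per group, edgeR quasi-likelihood adjusted p = 6.89e-13). The rise with metformin alone was 1.48-fold (log2 0.56 ± 0.0470, adjusted p = 3.45e-08). Metformin+FK506 lay above FK506 by 0.11 on the log2 scale, with an adjusted p of 0.0767, which did not pass. The order of the levels was therefore Control, Metformin, then FK506 and Metformin+FK506, the last pair not differing beyond the threshold. These are transcript levels, and NRF2 protein, which is controlled by degradation, was not measured.

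Gclc (gene ID 14629, chr9:77754535-77794485, plus strand) and Gclm (gene ID 14630, chr3:122245557-122270732, plus strand) encode the catalytic and the modifier subunit of glutamate-cysteine ligase, the rate-limiting enzyme of glutathione synthesis. Both rose several-fold with FK506. Gclc was at 7.41, 7.35 and 7.20 FPKM in Control, 8.78, 8.39 and 9.28 in Metformin, 38.6, 38.0 and 40.2 in FK506 and 41.0, 39.0 and 43.1 in Metformin+FK506. FK506 and Metformin+FK506 overlapped, and every other pair of groups was separate. The rise of Gclc was 4.56-fold in FK506 (log2 2.19 ± 0.0464, adjusted p = 1.74e-16) and 4.89-fold in Metformin+FK506 (log2 2.29 ± 0.0465, adjusted p = 1.11e-16), each against the same Control samples. Metformin alone raised it 1.17-fold (log2 0.23 ± 0.0477, adjusted p = 0.000614). Between Metformin+FK506 and FK506 the difference in Gclc was 0.10 (95% interval 0.010 to 0.19, adjusted p = 0.0856).

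Gclm separated all 4 groups. Its level was 6.48, 6.43 and 6.53 FPKM in Control, 9.39, 9.20 and 8.77 in Metformin, 26.1, 25.1 and 24.7 in FK506 and 37.0, 34.3 and 35.0 in Metformin+FK506. FK506 raised Gclm 3.35-fold over Control (log2 1.74 ± 0.0481, adjusted p = 4.87e-15), and both drugs together raised it 4.77-fold (log2 2.25 ± 0.0482, adjusted p = 2.1e-16). With metformin alone the rise was 1.38-fold (log2 0.46 ± 0.0497, adjusted p = 7.04e-07). Gclm was the one of the 10 genes with the largest step from FK506 to Metformin+FK506, 1.42-fold (log2 0.51 ± 0.0440, adjusted p = 2.68e-07).

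Gsr, Txnrd1 and Srxn1 restore oxidised thiols and all rose with FK506, by very different amounts. Gsr (gene ID 14782, chr8:33652523-33698163, plus strand), the glutathione reductase that uses NADPH to return oxidised glutathione to its reduced form, moved least. It was at 19.8, 19.9 and 21.0 FPKM in Control, 17.8, 18.0 and 18.3 in Metformin, 30.5, 30.4 and 31.7 in FK506 and 27.8, 30.0 and 28.3 in Metformin+FK506. The Metformin samples were the lowest and the FK506 samples the highest, with no overlap. Gsr rose 1.31-fold with FK506 (log2 0.39 ± 0.0454, adjusted p = 6.07e-07) and fell by 0.20 on the log2 scale with metformin alone (SE 0.0462, adjusted p = 0.00163). Its difference between Metformin+FK506 and FK506 was −0.08 (95% interval −0.175 to 0.0156, adjusted p = 0.198), although the FPKM values did not overlap.

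Txnrd1 (gene ID 50493, chr10:82833951-82897712, plus strand), the cytosolic thioredoxin reductase, fell into 2 levels. It was at 22.1, 23.1 and 22.6 FPKM in Control and 22.5, 22.7 and 22.6 in Metformin, against 75.1, 75.8 and 76.6 in FK506 and 76.0, 75.2 and 75.9 in Metformin+FK506. The groups with FK506 overlapped each other, as did the groups without it. FK506 raised Txnrd1 2.88-fold over Control (log2 1.53 ± 0.0320, adjusted p = 1.59e-16). With metformin the difference was −0.03 (95% interval −0.101 to 0.0366, adjusted p = 0.423) without FK506 and 0.02 (−0.0455 to 0.0853, adjusted p = 0.672) with it.

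Srxn1 (gene ID 76650, chr2:152105516-152111376, plus strand), sulfiredoxin, which reactivates overoxidised peroxiredoxins, had the lowest level in Control and the largest rise of the 10 genes. It was at 2.71, 2.05 and 2.17 FPKM in Control, 2.60, 2.88 and 2.97 in Metformin, 21.8, 21.0 and 20.05 in FK506 and 23.8, 23.4 and 26.4 in Metformin+FK506. Control and Metformin overlapped, and the other pairs did not. Srxn1 rose 7.83-fold in FK506 (log2 2.97 ± 0.0846, adjusted p = 7.64e-15) and 9.31-fold in Metformin+FK506 (log2 3.22 ± 0.0849, adjusted p = 2.76e-15). The promoter window of this gene, printed above, held the element core and both AP-1 matches found in the 11 windows searched.

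G6pdx (gene ID 14381, chrX:74409483-74429194, minus strand) and Pgd (gene ID 110208, chr4:149149991-149166771, minus strand) encode the 2 dehydrogenases of the oxidative branch, each of which yields NADPH. G6pdx, which encodes the first and rate-limiting enzyme, was at 21.1, 20.1 and 20.3 FPKM in Control, 19.98, 19.6 and 20.1 in Metformin, 46.4, 46.3 and 47.2 in FK506 and 52.1, 46.8 and 55.3 in Metformin+FK506. All samples with FK506 lay above all samples without it, and Metformin overlapped Control and Metformin+FK506 overlapped FK506. G6pdx rose 1.96-fold in FK506 (log2 0.97 ± 0.0460, adjusted p = 6.08e-12) and 2.19-fold in Metformin+FK506 (log2 1.13 ± 0.0461, adjusted p = 7.65e-13). Its difference between Metformin and Control was −0.08 (95% interval −0.175 to 0.0244, adjusted p = 0.187). How reads that G6pdx shares with its retrogene copy G6pd2 were counted is not given in the sources used here.

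Pgd, with each drug alone against Control, changed more with metformin than with FK506. Its level was 48.7, 49.5 and 49.3 FPKM in Control, 29.1, 27.9 and 28.3 in Metformin, 65.8, 60.7 and 61.5 in FK506 and 62.4, 64.2 and 60.4 in Metformin+FK506. Metformin alone gave the 3 lowest samples, and the groups with FK506 gave the 6 highest. Metformin lowered Pgd 1.76-fold (log2 −0.82 ± 0.0417, adjusted p = 8.18e-11). FK506 raised it 1.1-fold (log2 0.13 ± 0.0406, adjusted p = 0.00655), a call that was lost when the filter on low values was dropped (log2 0.10, adjusted p = 0.0589). In TPM the Control samples were at 102, 103 and 103 and the FK506 samples at 159, 150 and 153, so the size of this rise depends on the scale.

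Tkt (gene ID 21881, chr14:30548359-30574720, plus strand), transketolase, and Taldo1 (gene ID 21351, chr7:141392199-141402968, plus strand), transaldolase, exchange carbon units between sugar phosphates in the non-oxidative branch. They moved in opposite directions with FK506. Tkt was at 149, 151 and 145 FPKM in Control, 113, 116 and 110.4 in Metformin, 75.5, 74.9 and 74.8 in FK506 and 74.2, 72.7 and 77.5 in Metformin+FK506. It was the most abundant of the 10 genes in Control. Control lay above Metformin and Metformin above both groups with FK506, which overlapped each other. Tkt was 2.30-fold lower in FK506 than in Control (log2 −1.20 ± 0.0333, adjusted p = 5.43e-15) and 1.34-fold lower in Metformin (log2 −0.43 ± 0.0329, adjusted p = 1.42e-08).

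Taldo1 was at 59.9, 64.1 and 60.8 FPKM in Control, 51.9, 55.3 and 51.4 in Metformin, 129, 123 and 126 in FK506 and 131, 133 and 139 in Metformin+FK506. No group overlapped another. FK506 raised Taldo1 1.76-fold (log2 0.82 ± 0.0416, adjusted p = 1.5e-11) and metformin alone lowered it 1.19-fold (log2 −0.25 ± 0.0423, adjusted p = 8.66e-05), a call that was lost with limma on quantile normalized values (log2 −0.11, adjusted p = 0.0576). With FK506, Taldo1 was therefore the more abundant transcript of the pair, and without it Tkt was.

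**Figure D2:**
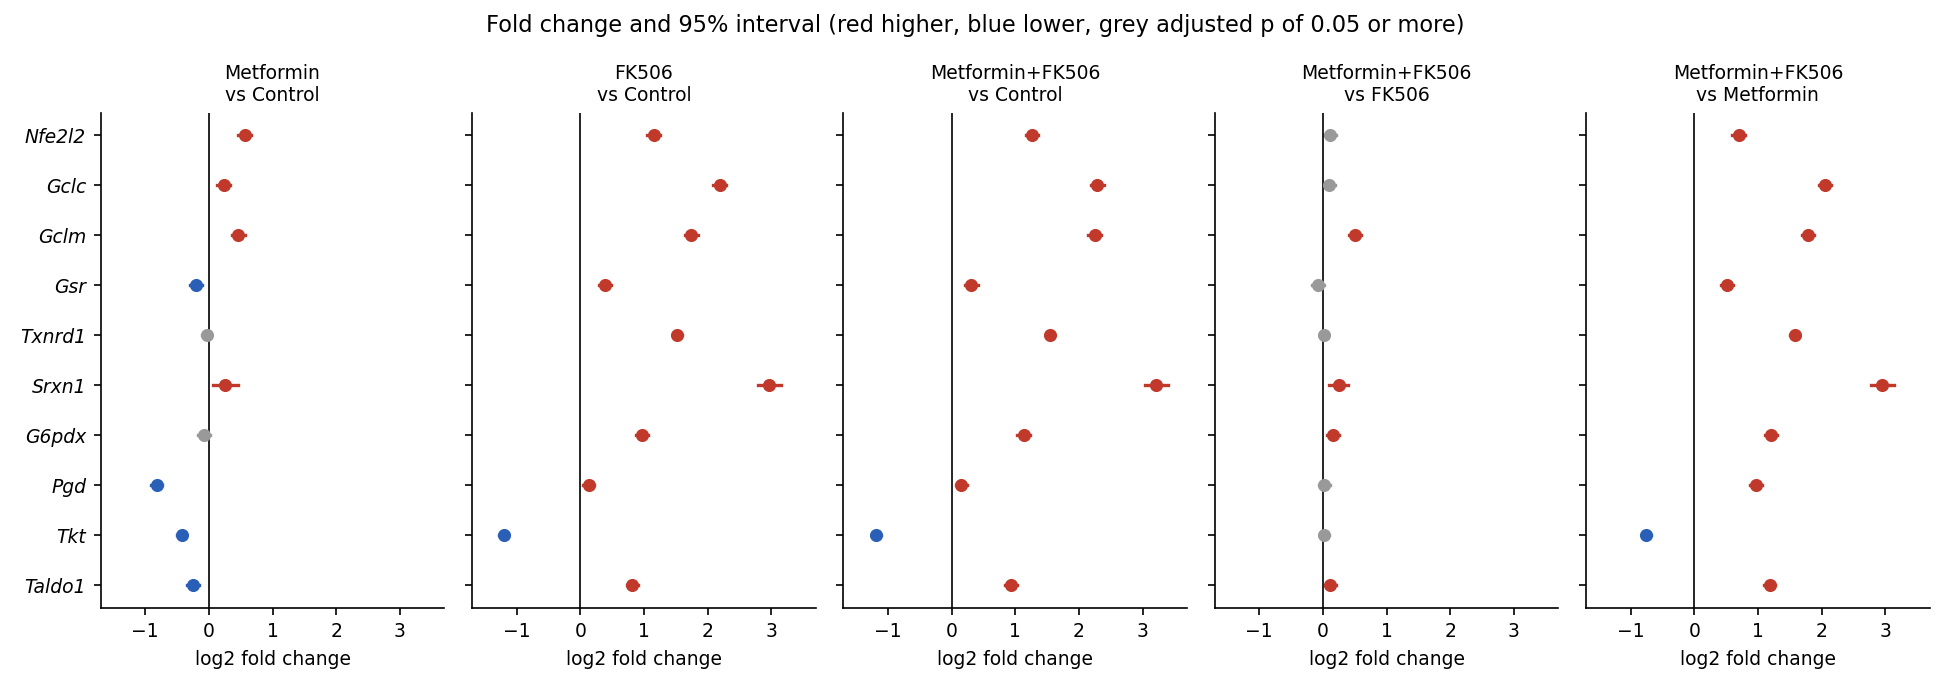
Log2 change of each of the 10 genes in the 5 comparisons between groups, from TMM-scaled counts, with 95% intervals. With FK506 against Control 9 genes lie above 0 and Tkt below it at −1.20, while with metformin against Control the changes lie between −0.82 and 0.56.

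Ratios of FPKM described the balance between transcripts of related enzymes and subunits. Planned ratios were compared between groups with a two-sided exact permutation test over samples. In that test 3 against 3 cannot give a p under 0.1 (10 tests, adjusted 0.125 at that floor). The ratio of Gclm to Gclc, the modifier to the catalytic subunit, was 0.886 ± 0.0191 (SD, n = 3) in Control, 1.04 ± 0.0810 in Metformin, 0.650 ± 0.0307 in FK506 and 0.865 ± 0.0475 in Metformin+FK506. FK506 lowered it and metformin raised it, without overlap of samples, with exact permutation p = 0.1. Metformin+FK506 did not lie apart from Control (exact permutation p = 0.8). The summed FPKM of Tkt and Taldo1 over that of G6pdx and Pgd, the non-oxidative over the oxidative enzymes, was 3.01 ± 0.0736 in Control, 3.43 ± 0.148 in Metformin, 1.84 ± 0.0147 in FK506 and 1.84 ± 0.0442 in Metformin+FK506. The groups with and without FK506 did not overlap (exact permutation p = 0.1), and the groups with FK506 did not lie apart from each other (exact permutation p = 1.0). Tkt over Taldo1, a ratio chosen after its values were seen and not tested, was 2.41 ± 0.0718 in Control, 2.14 ± 0.0392 in Metformin, 0.596 ± 0.0132 in FK506 and 0.557 ± 0.0107 in Metformin+FK506.

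**Figure D3:**
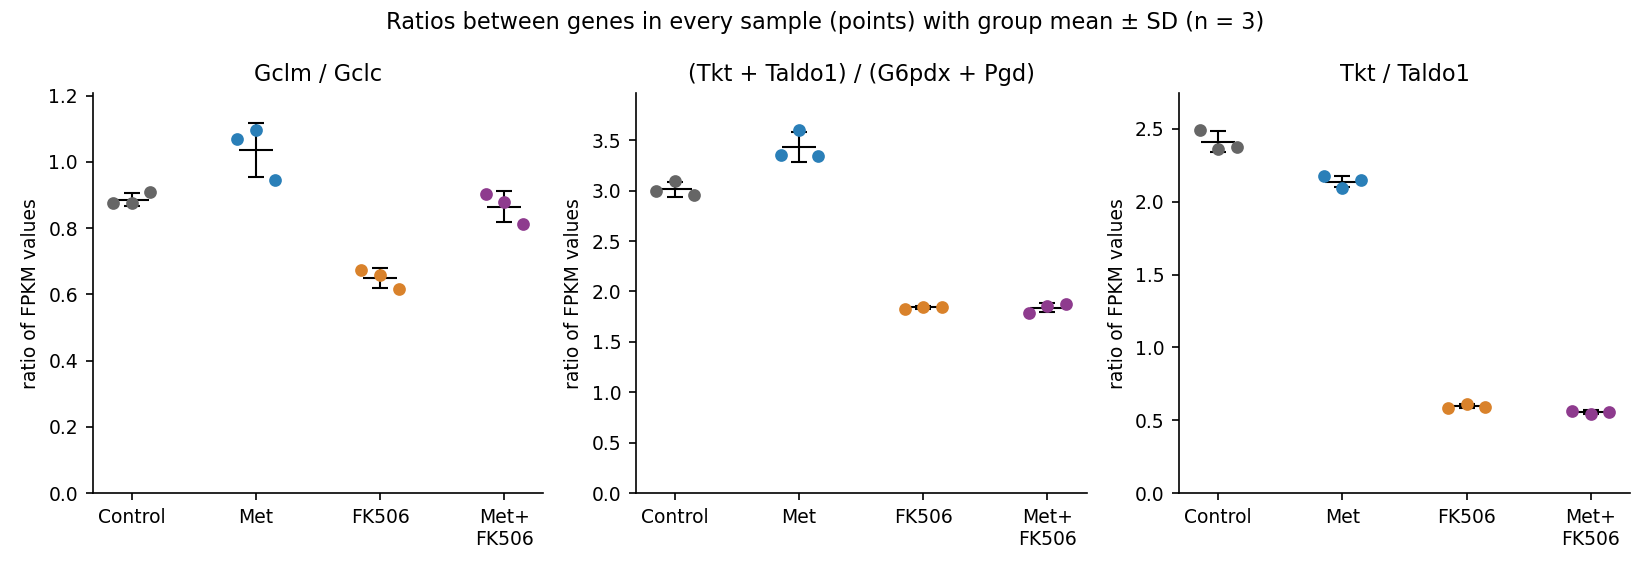
Ratios of FPKM in each of the 12 samples, on axes starting at 0, with the mean and SD of each group of 3. The non-oxidative to oxidative ratio is 3.01 in Control and 1.84 in both groups with FK506, and the ratio of Gclm to Gclc is lowest in FK506, at 0.650.

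Metformin against Control asks what metformin did without calcineurin inhibition. The 10 genes split evenly: Nfe2l2, Gclc, Gclm and Srxn1 were higher, Gsr, Pgd, Tkt and Taldo1 were lower, and Txnrd1 and G6pdx did not pass. These 8 calls stand beside 56% of all genes tested, 28.6% higher and 27.4% lower. Samples of 7 of the 10 genes did not overlap between the groups, as for 65% of all genes. No change reached 1 on the log2 scale, and the median was −0.05 beside 0.01 over all genes. The rise of Srxn1, 1.20-fold (log2 0.26 ± 0.0929, adjusted p = 0.0255), had overlapping samples and did not pass under 7 of the alternatives tried. Summed B cell markers were 61.1 ± 2.02 FPKM in Control and 91.8 ± 7.87 in Metformin, those of CD8 genes 9.18 ± 0.295 and 13.1 ± 0.169, and those of myeloid genes 4.50 ± 0.0882 and 9.25 ± 0.699. The part of these cells in the differences was not tested.

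Metformin+FK506 against Control, which shares its Control samples with the comparison of FK506, asks what both drugs did together. All 10 genes differed, 9 higher and Tkt lower, beside 81.7% of all genes, 42.1% higher and 39.6% lower. In 7 of them the log2 change reached 1 in size, as in 37.4% of all genes, and samples of all 10 were apart, as in 82%. With limma on log2(TPM + 1), 9003 genes were called higher and 3659 lower in this comparison, in place of 6401 and 6011. The call for Pgd (log2 0.15, adjusted p = 0.00239) was lost when the filter on low values was dropped (log2 0.10, adjusted p = 0.058). Against Metformin, with FK506 added to cells under metformin, all 10 differed as well, 9 higher and Tkt lower, beside 78.2% of all genes, 40.3% higher and 37.9% lower. In 6 of them the change was 1 or more on the log2 scale, as in 32.2% of all genes. Limma on log2(TPM + 1) gave 9422 genes higher and 3065 lower in place of 6125 and 5755. In this comparison Pgd rose 1.96-fold (log2 0.97 ± 0.0416, adjusted p = 1.94e-12) from the level to which metformin had brought it, and Gsr rose 1.42-fold (log2 0.51 ± 0.0458, adjusted p = 2.88e-08). Tkt was 1.69-fold lower (log2 −0.76 ± 0.0332, adjusted p = 2.74e-12).

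Metformin+FK506 against FK506 asks what metformin added. Gclm, Srxn1, G6pdx and Taldo1 were higher and none of the 10 was lower, with 6 not passing the test, beside 30.7% of all genes that differed, 15.6% higher and 15% lower. Apart from Gclm these were small: Srxn1 rose 1.19-fold (log2 0.25 ± 0.0716, adjusted p = 0.0144), G6pdx 1.12-fold (log2 0.16 ± 0.0446, adjusted p = 0.0113) and Taldo1 1.08-fold (log2 0.12 ± 0.0407, adjusted p = 0.0404). Samples of 5 of the 10 genes did not overlap between the groups, as for 38.6% of all genes. No change reached 1 on the log2 scale, as 4.21% of all genes did. The call for Taldo1 was lost under most alternatives, and with limma on log2(FPKM + 1) only Gclm of the 10 passed. Leaving out either FK506 replicate 2 or Metformin+FK506 replicate 3 also took the count to 1, and leaving out FK506 replicate 3 took it to 2. Leaving out Metformin+FK506 replicate 2, Gsr was called lower (−0.13, adjusted p = 0.0271). The summed B cell markers were 887 ± 25.5 FPKM in FK506 and 415 ± 15.6 in Metformin+FK506, and the myeloid markers 1342 ± 24.8 and 936 ± 63.1. All 10 B cell markers were lower in Metformin+FK506. The lower myeloid sum came from Lyz2, a lysozyme gene, at 981 ± 10.8 FPKM in FK506 and 539 ± 64.5 in Metformin+FK506, while of the other myeloid markers 3 were called higher and none lower, with a median log2 change of 0.13 over all 10. The part of either cell type in the difference of Gclm was not tested.

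Whether metformin acted differently with FK506 than without it was tested by the interaction term, the change with metformin in the presence of FK506 minus that in its absence. It passed for 5 of the 10 genes, 4 with a positive and 1 with a negative term, beside 46.5% of all genes tested, 22.5% positive and 24% negative. Pgd had the largest, 0.84 on the log2 scale (SE 0.0580, adjusted p = 6.56e-09): metformin changed it by −0.82 without FK506 and by 0.02 with it. Tkt (0.44 ± 0.0466, adjusted p = 9.27e-07) and Taldo1 (0.37 ± 0.0587, adjusted p = 7.74e-05) were likewise lower with metformin in the absence of FK506, while in its presence Tkt differed by 0.02 and Taldo1 by 0.12. G6pdx had the smallest of the 5 (0.24 ± 0.0647, adjusted p = 0.00666), which was lost with limma on FPKM. Nfe2l2 went the other way (−0.46 ± 0.0647, adjusted p = 2.48e-05), with a rise of 0.56 without FK506 and 0.11 with it. For Gclc, Gclm, Gsr, Txnrd1 and Srxn1 the interaction did not pass, with adjusted p from 0.108 to 0.959. That of Gclc passed with upper-quartile factors (−0.18, adjusted p = 0.0299) and without Metformin+FK506 replicate 3 (−0.16, adjusted p = 0.0423). All 4 pentose phosphate genes were among the 5, and no difference between them and the other genes was tested.

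**Figure D4:**
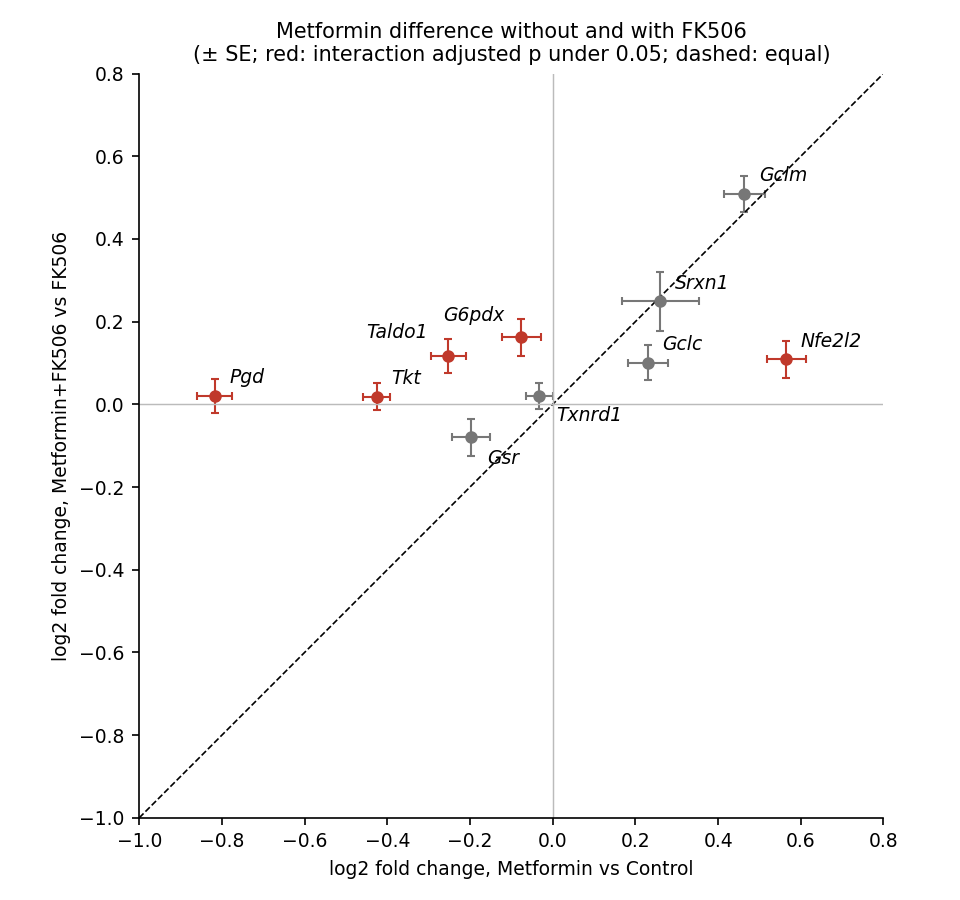
Log2 change of each of the 10 genes with metformin in the absence of FK506 (Metformin against Control) and in its presence (Metformin+FK506 against FK506). Bars are ± SE. Pgd lies at −0.82 without FK506 and at 0.02 with it, and Nfe2l2 at 0.56 and 0.11.

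The rest of the pathways was followed through lists of other genes, 108 in all, of which 104 passed the filter on low values and 6 stand in more than one list. Calls for these lists are on the TMM scale, and no alternative was run for them. With limma on log2(TPM + 1), 8997 of all genes were called higher in FK506 than in Control and 3624 lower. The lists were not recounted on that scale, so how far their falls depend on it was not tested. In FK506 against Control 18 of 21 other NRF2 targets tested were higher and 2 lower, beside 41.3% and 39.6% of all genes, with a median log2 change of 2.1. Aox1, an aldehyde oxidase, had no read in Control and rose at least 30.8-fold, computed against a floor of 3 counts per library. Hmox1, heme oxygenase 1, rose by 5.51 on the log2 scale, from 8.44 ± 0.222 to 446 ± 20.7 FPKM. Nqo1, an NADPH-consuming quinone reductase, rose by 4.31 from 0.273 ± 0.0213 to 6.37 ± 0.279 FPKM. The cystine importer Slc7a11, which feeds glutathione synthesis, rose by 4.81. The 2 that fell were Txn1, thioredoxin itself (−0.77), and Ugdh, a UDP-glucose dehydrogenase (−0.70). Summed myeloid markers, in the same comparison, went from 4.50 to 1342 FPKM, and the part of those cells in these levels was not tested.

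Of 15 regulators and partners of NRF2, 8 were higher and 5 lower in FK506 against Control, shares of 53.3% and 33.3% beside 41.3% and 39.6% of all genes, with a median of 0.21. Bach1, a repressor that competes for the same element, rose by 1.83, and Bach2, its lymphocyte relative, by 0.23. Nfe2, a related factor at no more than 3 counts in any Control sample, rose at least 19.6-fold. Keap1 fell by 0.47, from 25.2 ± 0.797 to 21.1 ± 1.35 FPKM, and the small MAF gene Maff by 0.85. These falls are on the TMM scale. Neither was recomputed with TPM, on which the median of all genes was 0.42 higher in FK506 than in Control. With metformin alone, against the same Control samples, Nfe2 was at least 12.2-fold higher, and the log2 change was 0.78 for Bach1, 0.43 for Bach2, −0.30 for Keap1, −0.73 for Maff and −0.34 for Mafk, another small MAF gene. In all, 7 of 15 were higher and 6 lower, beside 28.6% and 27.4% of all genes.

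Among the other genes of the glutathione system 11 of 23 were higher with FK506 and 11 lower, 47.8% each way beside 41.3% and 39.6% of all genes, with a median of 0.20. The rises were led by Mgst1, a microsomal glutathione transferase with no read in Control (at least 169-fold), and Gstm1, a cytosolic one (4.91). The falls were led by Chac1, which degrades glutathione (−4.89), and the transferase Gstt2 (−2.38). Of the other thioredoxin and peroxiredoxin genes 12 of 19 were lower and 6 higher, 63.2% and 31.6% beside 39.6% and 41.3% of all genes, with a median of −0.43. This tally too is on the TMM scale only. Txnip, an inhibitor of thioredoxin, rose by 3.08, Sesn1, a sestrin, by 2.37 and Prdx1, a peroxiredoxin, by 2.09, from 86.2 ± 2.96 to 425 ± 19.9 FPKM. Nxn, nucleoredoxin, fell by 1.94 and Prdx4, the peroxiredoxin of the endoplasmic reticulum, by 1.82.

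Of 9 other pentose phosphate genes tested among 11 listed, 2 were higher and 6 lower with FK506, 22.2% and 66.7% beside 41.3% and 39.6% of all genes, with a median of −0.63. These calls are on the TMM scale only, and the list was not recounted with TPM. The rises were small, Shpk, a sedoheptulose kinase, by 0.41 and H6pd, the dehydrogenase of the endoplasmic reticulum, by 0.19. Pgm2, a gene of the phosphoglucomutase family listed here by its symbol, fell by 2.81 from 95.7 ± 2.22 to 15.9 ± 0.139 FPKM. Prps1, which makes the ribose donor of nucleotides, fell by 1.04. Pgm2 fell with metformin alone too, by 1.91. Of the other sources of NADPH 9 of 14 were lower and 4 higher, 64.3% and 28.6%, with a median of −0.70. Me1, the cytosolic malic enzyme, rose by 3.10 and Idh1, the cytosolic isocitrate dehydrogenase, by 2.63. Aldh1l2 and Mthfd2, mitochondrial enzymes of folate metabolism, fell by 5.87 and by 2.58. Of the superoxide genes 8 of 9 rose and 1 fell, 88.9% and 11.1% beside 41.3% and 39.6% of all genes, with a median of 0.45. The largest rise was that of Cybb (4.09), a subunit of the phagocyte NADPH oxidase that B cells and myeloid cells express, while Sod1, the cytosolic superoxide dismutase, fell by 0.72.

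With metformin alone, 11 of 21 other NRF2 targets were higher and 7 lower, 52.4% and 33.3% beside 28.6% and 27.4% of all genes, with a median of 0.16. The largest rises were those of the glutathione transferase Gsta4 (1.23), from 0.209 FPKM, and of Ptgr1, a prostaglandin reductase (0.77). Me1 fell by 1.92. Cbr3, a carbonyl reductase, had no read in Metformin and 0 to 13 reads in the Control samples, so the groups overlap. Hmox1 rose by 0.60, Nqo1 by 0.65 and Slc7a11 by 0.45. Of the thioredoxin genes 10 of 19 were lower and 5 higher, 52.6% and 26.3% beside 27.4% and 28.6% of all genes, led by Prdx4 (−0.998) and Nxn (−0.67). When metformin was added to FK506, 10 of 21 NRF2 targets rose and 1, the epoxide hydrolase gene Ephx1 (−0.11), fell, beside 15.6% and 15% of all genes. Aox1 (1.15) and Nqo1 (1.12) rose most, Nqo1 to 13.7 ± 1.75 FPKM, and Hmox1 by 0.21. Txnip, by contrast, fell by 1.18 from 101 ± 4.68 to 43.6 ± 1.1 FPKM.

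**Figure D5:**
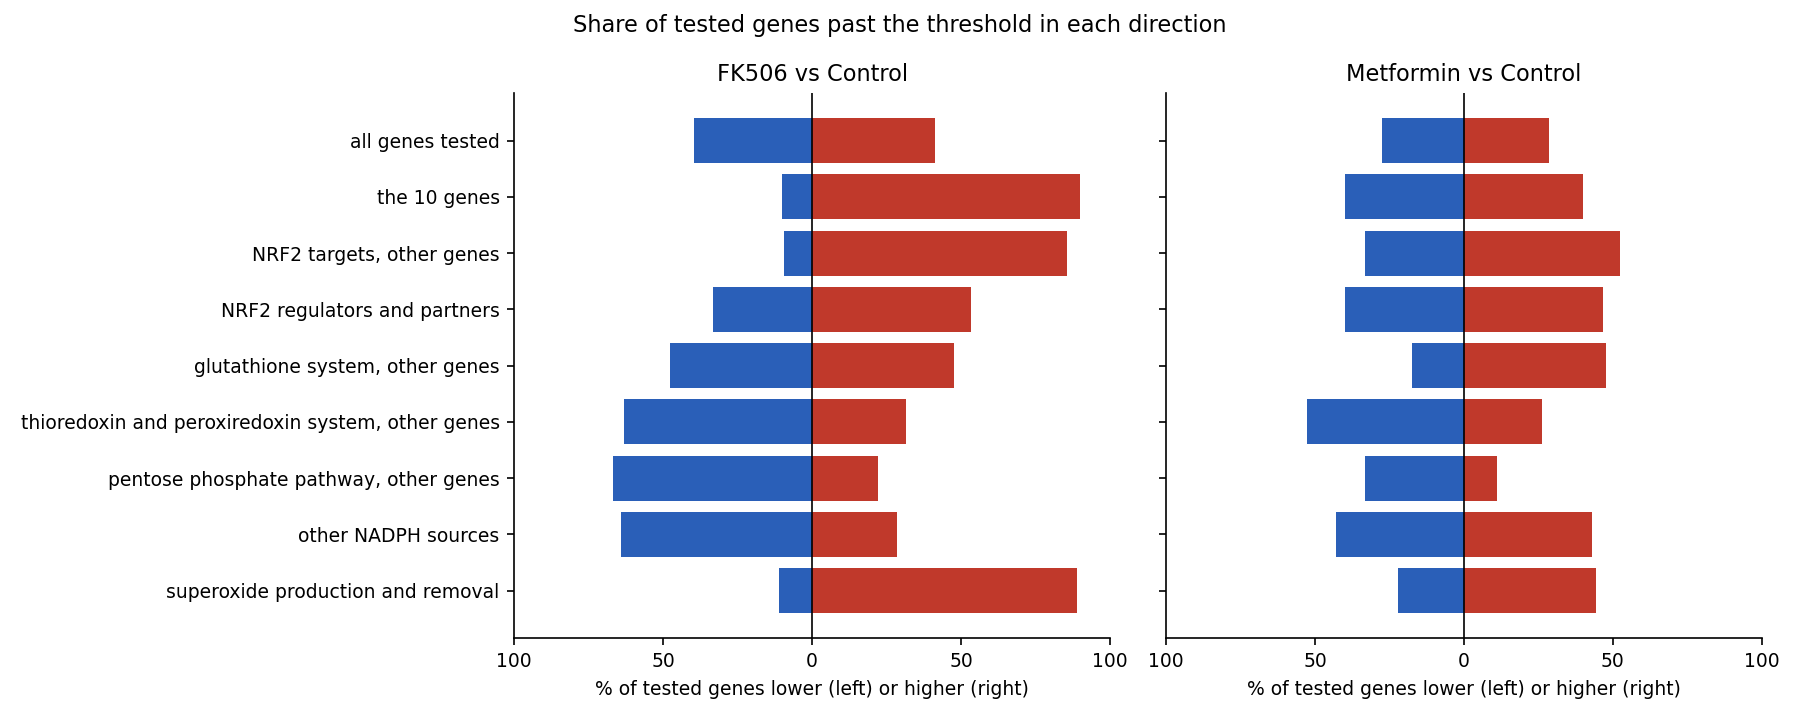
Share of the tested genes of each list that were called higher or lower, in percent, beside the 10 genes and all 15197 genes tested. In FK506 against Control 90% of the 10 genes and 85.7% of the other NRF2 targets were higher, and 22.2% of the other pentose phosphate genes.

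The 10 genes did not share a single pattern across the 12 samples. Likeness was measured as the root mean square difference of centred log2(FPKM + 1) values, smaller being more alike, and it is a description only, since the samples share groups. The nearest pair among the 10 was G6pdx and Taldo1, at 0.0945, for which Taldo1 ranked 29 among all genes by likeness to G6pdx. Gclc and Gclm, although subunits of the same enzyme, differed by 0.243. Tkt stood alone, its nearest gene of the 10, Gsr, ranking 10656. Outside the 10, the genes most like Tkt were Prdx2 and Tap1, and those most like Srxn1 were Vsig10 and Ftl1, a ferritin light chain gene. The genes most like Nfe2l2 were Tgfbr1 and Pea15a, most like Gclc Itsn1 and Dhrs3, and most like Gclm Ldlrad4 and Arhgap29. Gsr was most like Soat1 and Tmem230, Txnrd1 like Htra1 and Fam219a, G6pdx like Colec12 and Mical2, Pgd like Odc1 and Pde4a, and Taldo1 like Tmem250-ps and Tusc2. The 1 added to FPKM shrinks the changes of genes at low levels, so likeness here is not likeness in fold change. From Control to FK506, Htra1 went from 0.00527 to 2.25 FPKM and Itsn1 from 0.252 to 4.89. Colec12 went from 0.0028 to 1.17 and Mical2 from 0.0124 to 1.17.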

How the data were processed

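The authors deposited, for 12 samples and 45777 genes, read counts per gene without normalization, FPKM values and TPM values. Per the labels' processing notes, tools included bcl2fastq 2.20.0, Trimmomatic, HISAT2 2.1.0 and StringTie 2.1.3b, with build mm10. Genes with at least 0.5 FPKM in at least 3 samples (15197) were tested on the deposited counts with edgeR 4.0.16 (TMM factors, quasi-likelihood test, 1 fit of 4 groups with 8 residual degrees of freedom), and p-values were adjusted by Benjamini-Hochberg over all of them. Log2 changes come from that fit. The script was tested on simulated data. The 10 genes and the lists were chosen with earlier results of these data known. Beside the 10, named genes were up to 2 largest rises and falls per list and comparison described, Nqo1, Hmox1, Slc7a11, Keap1, Bach1, Bach2, Txn1, Txnip, Prdx1, Idh1 and Me1, and the 2 most alike genes. The values of 1 gene picked by this rule are not reported here. Alternatives were other scalings and filters, limma 3.58.1 on log2(FPKM + 1), DESeq2 1.42.0, a replicate block and leaving out each sample. Limma on log2(TPM + 1) was added after seeing the data. No pair of replicates agreed within sampling noise (chi-square per degree of freedom 3.98 to 15.2), so none was merged as a repeat of the same library, which does not show that they came from separate mice. Gene positions are from GENCODE on GRCm38. Promoter windows are from RefSeq, GRCm38.p6.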

Additional observations from a re-analysis of the deposited data

Results flagged for a closer look

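For 5 of the 10 genes the change with metformin differed with and without FK506, as tested by the interaction term of the edgeR fit, beside 46.5% of all genes tested. The term is the log2 change with metformin in the presence of FK506 minus that in its absence, over 3 samples per group. It was 0.84 for Pgd, 0.44 for Tkt, 0.37 for Taldo1 and 0.24 for G6pdx, all positive, and −0.46 for Nfe2l2. The terms of Pgd, Tkt, Taldo1 and Nfe2l2 passed under every alternative run, and that of G6pdx was lost with limma on log2(FPKM + 1) (0.18, adjusted p = 0.0852) and on log2(FPKM + 0.1) (0.18, adjusted p = 0.0958). Summed B cell markers moved in the same groups, from 61.1 to 91.8 FPKM with metformin in the absence of FK506 and from 887 to 415 in its presence, and their part in these terms was not tested.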

How the results depend on the processing

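Of 1070 values of single genes recomputed under the alternatives, 1002 kept their direction and their side of the threshold, 34 lost the call, 3 gained it and 31 changed sign. None of the sign changes touched FK506 against Control, Metformin+FK506 against Control or Metformin+FK506 against Metformin, where 1, 1 and 0 calls were lost. The count of genes that differed between Metformin+FK506 and FK506, 4 of 10, fell to 1 with limma on log2(FPKM + 1) and on log2(FPKM + 0.1), and ran from 1 to 4 when 1 sample was left out. The cause was not tested.

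The sign changes were all of values near 0 that passed under neither setting. With limma on log2(FPKM + 0.1) and log2(FPKM + 1), Txnrd1 was at 0.00174 and 0.00167 for Metformin against Control. For Metformin+FK506 against FK506, Txnrd1 was at −0.00198 and −0.00196, Pgd at −0.00664 and −0.00656, and Tkt at −0.00558 and −0.00551. The interaction term of Txnrd1 was −0.00372 and −0.00363, that of Gclm −0.000688 with log2(FPKM + 0.1), and that of Srxn1 0.00698 with log2(FPKM + 1). The interaction term of Srxn1 was 0.0520 with TPM and 0.0906 with quantile normalization, which put Txnrd1 at 0.0375 for metformin. With upper-quartile factors Txnrd1 was at 0.0133 for metformin and −0.000178 for the interaction, and Gclm at −0.00704 for the interaction. With no filter, Txnrd1 was at −0.000345 and Tkt at −0.00201 for Metformin+FK506 against FK506. With 1 sample left out, Pgd ran from −0.0217 to 0.0501 and Tkt from −0.0106 to 0.0220 in that comparison, and the interaction term of Srxn1 from −0.133 to 0.0670.

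No sign of pairing by replicate number was seen: correlations of deviations between same-numbered samples lay between −0.0857 and 0.0539 over 15 pairs. Such values cannot show whether same-numbered samples shared a source, which the labels do not say. With the replicate number as a block, 8, 10, 10, 3, 10 and 5 of the 10 genes were called in Metformin, FK506 and Metformin+FK506 against Control, Metformin+FK506 against FK506 and against Metformin, and the interaction. Taldo1 in Metformin+FK506 against FK506 (0.12, adjusted p = 0.0561) was the call lost under the block. Depth limits Srxn1 most, with 349 to 403 counts in Control.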
